A study of Homo sapiens with 6 samples.

Results

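The transcripts of 10 *BCL2* family genes (*BCL2*, *BCL2L1*, *MCL1*, *BAX*, *BAK1*, *BCL2L11*, *BID*, *BBC3*, *PMAIP1* and *BCL2L13*) were measured in SH-SY5Y cells with and without added ERRγ, the estrogen-related receptor encoded by *ESRRG*. The 10 genes were taken by symbol from 67060 genes in a table of raw read counts, and all 10 were among the 24500 genes abundant enough to be tested. SH-SY5Y is a human neuroblastoma line that the labels describe as neuronal progenitor. Cells on 10 cm plates received 0.5 µl of an adenovirus, either one carrying GFP (3 libraries, numbered 1, 3 and 4) or one carrying Flag-ERRg (3 libraries, numbered 2, 3 and 4), and total RNA was taken after 24 h. The Flag-ERRg virus holds the mouse *Esrrg* coding sequence with a 3xFlag tag behind the CMV promoter, so the receptor was made at a level set by the virus, and both groups were infected. No uninfected cells were among the samples. Nothing in the labels says that the numbered libraries came from separate cultures, so the p-values measure the spread between these libraries, which may be technical.

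Proteins of the BCL2 family decide whether the outer mitochondrial membrane stays closed. BAX and BAK, the effectors, open pores in that membrane and let cytochrome c into the cytosol, where it assembles the apoptosome and activates caspases. BCL2, BCL-XL (from *BCL2L1*) and MCL1 hold the effectors and their activators in check, while the BH3-only proteins BIM (from *BCL2L11*), BID, PUMA (from *BBC3*) and NOXA (from *PMAIP1*) neutralise the guardians or activate the effectors. *BCL2L13* encodes a mitochondrial outer membrane protein of the family that also serves as a mitophagy receptor. Much of the control of these proteins lies in their stability, cleavage and pairing, none of which RNA counts report, and counts per gene pool the splice forms of *BCL2L1*, *MCL1* and *BCL2L11*, some of which have opposite actions.

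Counts on genes ranged from 24969759 to 29700980 in the GFP libraries and from 26513620 to 40859666 in the Flag-ERRg libraries. Reads assigned to no gene took 51.3% to 52.2% of reads with GFP and 46.6%, 31.6% and 29.5% in Flag-ERRg replicates 2, 3 and 4, so this share moved with the treatment and Flag-ERRg replicate 2 lay between the groups. *ESRRG* itself had 2357 to 2876 counts with GFP and 15228 to 26497 with Flag-ERRg, a log2 fold change of 3.02 ± 0.14 (SE), where reads of the viral mouse sequence may align to the human gene. Of 8 catecholaminergic neuroblastoma markers, *TH* and *CHGA* were listed at 0 counts in every library, and what these exact zeros reflect, the cells or the counting, was not tested. The summed level of the 8 was 639 to 695 normalized counts per 1000000 counted reads (CPM) with GFP and 498 to 657 with Flag-ERRg, with *DBH* lower (log2 fold change −2.64), *PHOX2A* higher (0.81) and the other 4 tested not called. The 7 mesenchymal neuroblastoma markers summed to 3232 to 3273 and 3907 to 4003 CPM, but most of this sum was *FN1* (1925 to 1977 and 2621 to 2764 CPM). Of the 7, 0 were called higher and 2 lower (*COL1A2* at −1.47 and *YAP1* at −0.67), with a median log2 fold change of −0.16. The part of these differences in the results below was not tested. In bulk RNA a larger share of one kind of cell and more RNA per cell cannot be told apart.

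With Flag-ERRg, transcripts of both effectors (*BAX* and *BAK1*), of *BCL2L1*, of the BH3-only genes *BID* and *BBC3*, and of *BCL2L13* were higher, by 1.81-fold to 3.48-fold. *BCL2*, *MCL1*, *PMAIP1* and *BCL2L11* differed by 1.03-fold to 1.25-fold and were not called. A gene was called at an adjusted p below 0.05 (edgeR's quasi-likelihood test, Benjamini-Hochberg over all tested genes) and a fold change of at least 1.5. Thus 6 of 10 were called higher, beside 17.3% of all tested genes and 25.9% of tested protein-coding genes. By edgeR 0 of 10 were called lower, as were 0 at an unadjusted p under 0.05 and 0 by DESeq2, beside 16.8% of all tested genes and 12.4% of protein-coding ones. Every Flag-ERRg library lay on one side of every GFP library in 8 of the 10 genes, which was also the case in 58.1% of all tested genes and 70.3% of protein-coding ones. The median log2 fold change was 0.91 over the 10, −0.10 over all tested genes and 0.12 over the protein-coding ones. Scaling by library size alone moved the median of all genes to −0.42 and the share of calls that were higher from 50.7% to 22.5%, and 5 of the 10 genes were then called higher, *BCL2L13* (0.53) no longer being so.

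**Figure D1:**
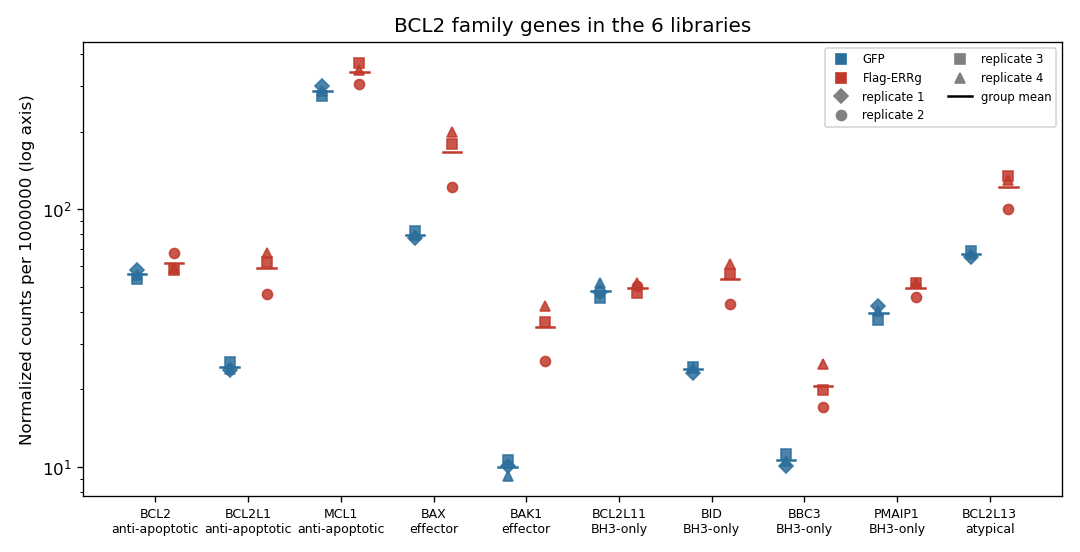
Normalized counts per 1000000 (log axis) of the 10 *BCL2* family genes in each library, with the role of each gene under its symbol. Blue points are GFP, red points Flag-ERRg, the marker shape gives the replicate number and the line the mean of 3 libraries. For *BAK1* the GFP libraries sit between 9.24 and 10.7 and the Flag-ERRg libraries between 25.7 and 42.1, while for *BCL2L11* the groups overlap.

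Transcripts of both effectors were higher with Flag-ERRg, *BAK1* by the most of the 10 genes. *BAK1* (chr6:33572547-33580293, minus strand, positions here and below from GENCODE release 44 on GRCh38) had 10.1, 10.7 and 9.24 normalized CPM in GFP replicates 1, 3 and 4 and 25.7, 36.5 and 42.1 in Flag-ERRg replicates 2, 3 and 4. Its log2 fold change of 1.80 ± 0.17 had an adjusted p of 3.8e-05. *BAX* (chr19:48954815-48961798, plus strand) had 77.5, 82.1 and 79.4 normalized CPM with GFP and 122, 179 and 199 with Flag-ERRg. The groups were apart for both genes, and the Flag-ERRg libraries were spread more widely than the GFP libraries. The log2 fold change of *BAX* was 1.06 ± 0.16 (adjusted p = 0.000382), and it fell to 0.41, below the fold cutoff, when the share of reads assigned to no gene was a covariate. Pseudogenes of *BAK1* took few reads, with 3 to 11 counts on *BAK1P1* and 0 or 1 on *BAK1P2* beside 285 to 1435 on *BAK1*. Reads not aligned uniquely, which count for no gene, took 7.2% to 7.4% of reads with GFP and 9.3% to 13.0% with Flag-ERRg. Whether *BAK1* lost reads in this way was not tested.

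The 150 bases before the start sites of *BAX*, *BAK1* and *BCL2L13* are printed because between them these 3 called genes show 3 of the 4 motifs searched for. RefSeq promoter windows (GRCh38.p14, 250 bases before to 50 after a start) were found for all 10 genes, 16 windows in all, and each motif was searched on both strands. In *BAX* (chr19:48954725-48954874, plus strand) the capitals mark the E-box CACGTG, in *BAK1* (chr6:33580277-33580426, minus strand) the GC box GGGCGG on either strand, and in *BCL2L13* (chr22:17638607-17638756, plus strand) the nuclear receptor half-site AGGTCA on either strand. GC boxes in the *BAX* and *BCL2L13* stretches are left in lower case. Where a gene has several windows, the stretch with most matches to its marked motif is printed.
BAX: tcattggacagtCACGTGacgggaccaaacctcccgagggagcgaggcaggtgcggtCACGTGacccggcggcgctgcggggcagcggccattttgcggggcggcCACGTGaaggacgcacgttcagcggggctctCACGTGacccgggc
BAK1: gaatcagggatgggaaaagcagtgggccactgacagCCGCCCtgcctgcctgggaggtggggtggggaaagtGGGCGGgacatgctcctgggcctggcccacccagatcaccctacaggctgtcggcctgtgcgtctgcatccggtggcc
BCL2L13: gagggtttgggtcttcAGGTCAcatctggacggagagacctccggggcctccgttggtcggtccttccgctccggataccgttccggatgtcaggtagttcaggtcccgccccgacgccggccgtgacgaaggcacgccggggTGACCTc
The *BAX* stretch holds 4 E-boxes, and 0.0142% of 35116 promoter windows hold 4 or more, while 7.26% hold any. The E-box was picked after the windows had been seen, so the first share is a description and no measure of rarity. *BBC3* and *BID* were the other genes of the 10 with an E-box, and 4 of the 16 windows held one. The nuclear receptor half-site was found in *BCL2L13* windows alone among the 10 genes, in 2 of the 16 windows and in 13.8% of all windows. The longer response element of the ERR receptors, TNAAGGTCA, which contains that half-site, was in 0 of the 16 windows and in 0.951% of all. GC boxes were in windows of 7 of the 10 genes, in 11 of the 16 windows and in 45.0% of all windows. These matches describe letters in short windows and show no binding.

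Of the 3 guardians among the 10 genes, *BCL2L1* was called and *MCL1* and *BCL2* were not. *BCL2L1* (chr20:31664452-31723989, minus strand) had 23.9, 25.5 and 24.1 normalized CPM with GFP and 47.1, 62.1 and 67.7 with Flag-ERRg, a log2 fold change of 1.27 ± 0.13 (adjusted p = 6.49e-05). The opposite-strand gene *ABALON* covers 41.3% of its exon bases and had 13 to 25 counts beside 673 to 2306 on *BCL2L1*. The libraries kept strand, while the strand setting of the counting is not given in the sources used here. Without strand, reads over the shared bases could count for neither gene, so the low *ABALON* count cannot settle what the overlap does. *MCL1* (chr1:150560895-150579738, minus strand), a short-lived guardian, had 301, 275 and 286 normalized CPM with GFP and 304, 369 and 346 with Flag-ERRg. Its groups were separated by a narrow gap, and its log2 fold change was 0.24 ± 0.11 (adjusted p = 0.0834). *BCL2* (chr18:63123346-63320128, minus strand), the founding member, had 58.3, 53.6 and 55.6 normalized CPM with GFP and 67.4, 58.1 and 59.3 with Flag-ERRg. Flag-ERRg replicate 2, the lowest of its group in all 6 called genes, was here the highest, the groups overlapped, and the log2 fold change was 0.14 ± 0.10 (adjusted p = 0.24). With scaling by library size alone, the values turned to −0.08 for *MCL1* and −0.17 for *BCL2*, the 1 alternative of 18 in which either changed sign. With the GC and length correction they were 0.32 (adjusted p = 0.017) and 0.36 (adjusted p = 0.0017). Without Flag-ERRg replicate 2 they were 0.42 (adjusted p = 9.0e-06) and 0.18 (adjusted p = 0.036), and with the covariate 0.028 and 0.34. All of these lay below the fold cutoff, and neither gene was called in any alternative.

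Of the BH3-only genes, *BID* and *BBC3* were called, and *BCL2L11* and *PMAIP1* were not. *BID* (chr22:17734138-17774770, minus strand), whose protein links death receptors to mitochondria once caspase 8 has cut it, had 23.2, 24.5 and 24.3 normalized CPM with GFP and 42.8, 56.3 and 61.3 with Flag-ERRg. Its log2 fold change was 1.16 ± 0.13 (adjusted p = 9.35e-05). *BBC3* (chr19:47220822-47232766, minus strand), whose protein binds every guardian, had 10.1, 11.3 and 10.5 normalized CPM with GFP and 17.0, 19.8 and 25.0 with Flag-ERRg. The groups were apart for both, and *BBC3* had a log2 fold change of 0.96 ± 0.14 (adjusted p = 0.000418). Corrected for exon GC content and length, this value was 0.47, and with the covariate 0.52, both below the fold cutoff. *PMAIP1* (chr18:59899996-59904305, plus strand), whose protein binds MCL1, had 41.9, 37.1 and 40.2 normalized CPM with GFP and 45.5, 51.7 and 51.5 with Flag-ERRg. Its log2 fold change of 0.32 ± 0.10 passed the p threshold (adjusted p = 0.0195) but not the fold cutoff, and was −0.01 with scaling by library size alone. *BCL2L11* (chr2:111119378-111168444, plus strand), an activator of BAX and BAK, had 47.5, 45.1 and 51.8 normalized CPM with GFP and 50.2, 47.2 and 51.5 with Flag-ERRg. Here the groups overlapped throughout, and the log2 fold change of 0.04 ± 0.09 (adjusted p = 0.718) turned to −0.27 with scaling by library size alone. *MIR4435-2HG*, on the opposite strand over 10.8% of the *BCL2L11* exon bases, had 2087 to 2812 counts beside 1340 to 1754 on *BCL2L11*. How reads over the shared bases were counted depends on the strand setting, which is not given. Without strand they could be left ambiguous and count for neither gene. Ambiguous reads took 4.5% to 4.9% of reads with GFP and 5.7% to 9.8% with Flag-ERRg.

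*BCL2L13* (chr22:17628855-17730855, plus strand) had 65.1, 69.1 and 66.8 normalized CPM with GFP and 99.9, 134 and 130.0 with Flag-ERRg. The groups were apart, and the log2 fold change was 0.86 ± 0.12 (adjusted p = 0.00028), the smallest of the 6 called. It was 0.45 with the covariate, which left *BAK1*, *BCL2L1* and *BID* as the 3 genes called.

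The called and uncalled genes also differed in base composition. The 6 called genes had 47.7% to 64.5% GC in their exons (median 57.8%), the 4 others 43.4% to 48.7% (median 44.6%), and tested protein-coding genes had a median of 48.6%. With the GC and length correction, 5 of the 6 were still called, *BBC3* being the exception. Their log2 fold changes were then 1.42 (*BAK1*), 0.90 (*BID*), 0.88 (*BCL2L1*), 0.87 (*BCL2L13*), 0.63 (*BAX*) and 0.47 (*BBC3*). The others had 0.50 (*PMAIP1*), 0.36 (*BCL2*), 0.32 (*MCL1*) and 0.003 (*BCL2L11*), so the sets lay closer together. With the replicate number as a block as well, *PMAIP1* was called (0.63) and *BBC3* was not (0.48). That block compares only libraries whose number occurs in both groups, so it sets Flag-ERRg replicate 2 aside. Flag-ERRg replicate 2 was the lowest of its group yet above every GFP library in all 6 called genes, and without it the same 6 were called with log2 fold changes up to 2.08 (*BAK1*).

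**Figure D2:**
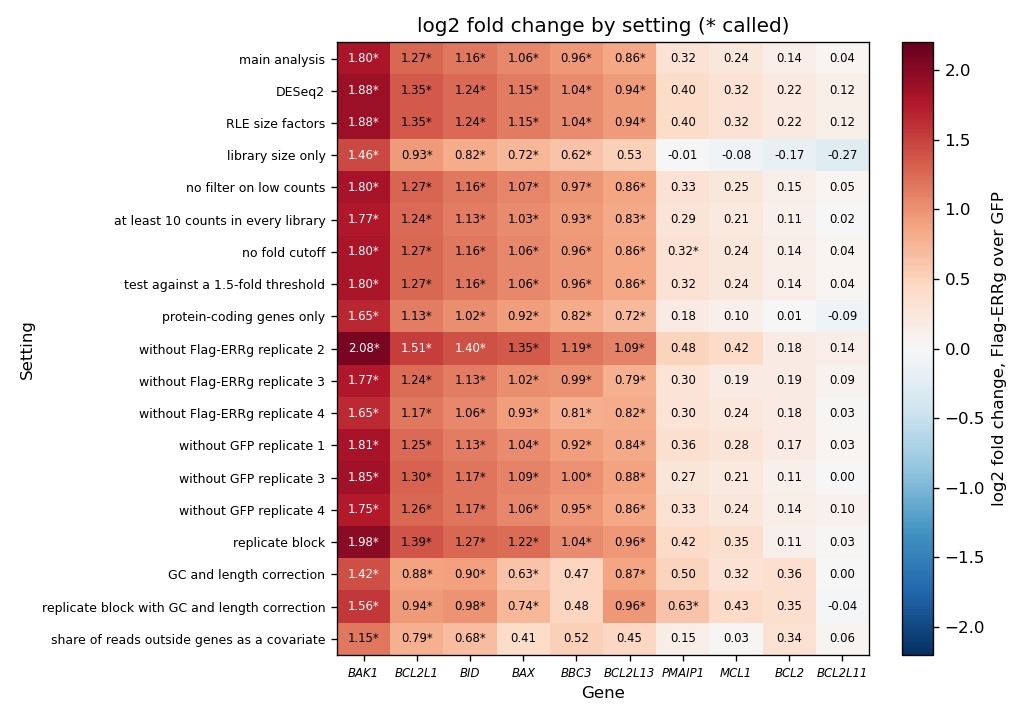
log2 fold change of each of the 10 genes (columns) in the main analysis and 18 alternatives (lines), with the colour scale in log2 units and an asterisk where the gene was called. *BAK1*, *BCL2L1* and *BID* carry an asterisk in all 18 alternatives, *BAX* in 17, *BCL2L13* in 16 and *BBC3* in 15, while *PMAIP1* carries one in 2 and *MCL1*, *BCL2* and *BCL2L11* carry none.

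Per length of exon, the guardian *MCL1* was the most abundant of the 10 with GFP, at 46.2 ± 2.1 normalized CPM per kb (SD, n = 3). *BAX* followed at 30.8 ± 0.89 and *PMAIP1* at 18.2 ± 1.1, and then came *BCL2L13* (8.74), *BCL2L11* (7.14), *BCL2L1* (5.83), *BID* (5.42), *BAK1* (4.52), *BCL2* (4.43) and *BBC3* (3.33). Among neighbours in this order, *BAK1* and *BCL2* were the pair whose ranges overlapped. With Flag-ERRg, *BAX* stood first at 64.4 ± 15 and *MCL1* second at 54.6 ± 5.2 normalized CPM per kb, with overlapping ranges. *BAK1*, below *BID* with GFP, stood above it at 15.7 ± 3.8, where its range overlapped those of its neighbours *BCL2L13* (15.8 ± 2.4) and *BCL2L1* (14.0 ± 2.5). *BID* (12.1 ± 2.2), *BCL2L11* (7.36 ± 0.32), *BBC3* (6.47 ± 1.3) and *BCL2* (4.89 ± 0.40) made up the lower end, and the ranges of *BCL2L11* and *BBC3* and of *BBC3* and *BCL2* overlapped. These are levels over the union of annotated exons, which understates genes that use a few of their exons.

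Ratios of levels within a library do not depend on scaling between libraries, but they are not corrected for GC content. They are given as descriptions with no test. *BAX* to *BCL2*, an effector over a guardian, was 6.48, 7.47 and 6.97 in the GFP libraries and 8.83, 15.0 and 16.3 in the Flag-ERRg libraries. *BAX* to *BCL2L1* was 5.27, 5.22 and 5.35 with GFP and 4.21, 4.67 and 4.77 with Flag-ERRg. The choice of guardian thus set the direction, with *BAX* higher against *BCL2* and lower against *BCL2L1* in every Flag-ERRg library than in any GFP library. *BAK1* to *MCL1*, a guardian that holds BAK, was 0.0945, 0.109 and 0.0908 with GFP and 0.237, 0.278 and 0.342 with Flag-ERRg. No ratio of *BAK1* to *BCL2L1*, which was itself called higher, was taken. *BBC3* to *BCL2* was 0.684, 0.831 and 0.749 with GFP and 1.00, 1.35 and 1.67 with Flag-ERRg. With the GC and length correction the log2 fold changes of *BAX*, *BBC3* and *BCL2* were 0.63, 0.47 and 0.36. With the covariate they were 0.41, 0.52 and 0.34, so the size of both rises over *BCL2* depends on the setting. For *BCL2L1*, *BAK1* and *MCL1* the values were 0.88, 1.42 and 0.32 with the correction and 0.79, 1.15 and 0.028 with the covariate. *PMAIP1* to *MCL1* was the one pair that overlapped, at 0.384 to 0.399 with GFP and 0.399 to 0.426 with Flag-ERRg.

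**Figure D3:**
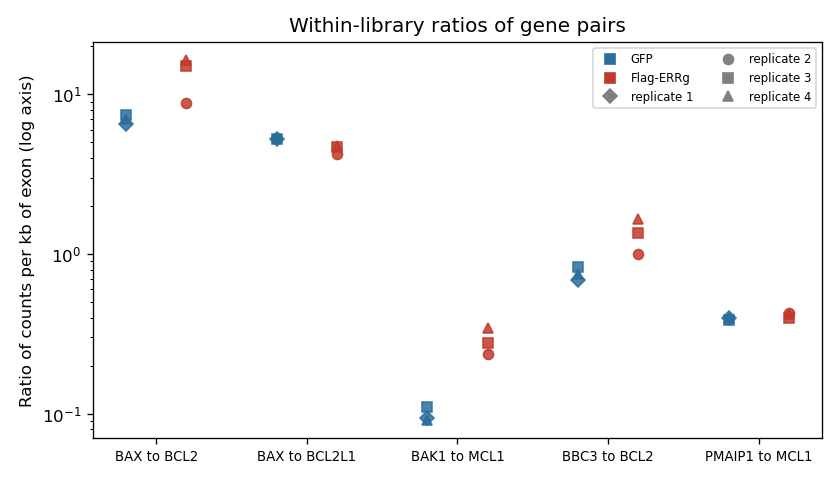
Ratio of counts per kb of exon for 5 gene pairs (log axis) in each library, GFP in blue and Flag-ERRg in red, with the marker shape giving the replicate number. *BAX* to *BCL2*, *BAK1* to *MCL1* and *BBC3* to *BCL2* are higher in the 3 Flag-ERRg libraries, *BAX* to *BCL2L1* is lower, and *PMAIP1* to *MCL1* overlaps.

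The remaining family moved in both directions. Of 13 further family genes 10 were tested, of which 2 were called higher, 5 lower and 3 neither, with a median log2 fold change of −0.46, beside the 17.3% higher and 16.8% lower of all tested genes and the 25.9% and 12.4% of protein-coding ones. *BCL2A1*, a further guardian, had 19 to 23 counts with GFP and 3 to 4 with Flag-ERRg, so its log2 fold change of −2.65 ± 0.37 (adjusted p = 0.000302) rests on few reads. The BH3-only genes *BMF* (−1.47 ± 0.16, adjusted p = 7.4e-05) and *HRK* (−1.54 ± 0.36, adjusted p = 0.00516, 5 to 46 counts) were lower, as was *BOK*, a relative of the effectors, by 0.68 ± 0.23 on the log2 scale (adjusted p = 0.0298, 25 to 60 counts). The *BOK* call was held by 9 of 18 alternatives, and was lost with DESeq2 (adjusted p = 0.0808) and with 5 of the 6 libraries left out in turn. The mitophagy receptor pair split, with *BNIP3* higher and *BNIP3L* lower. *BNIP3* went from 47.0, 47.9 and 48.6 normalized CPM with GFP to 64.4, 89.7 and 96.3 (log2 fold change 0.80 ± 0.14, adjusted p = 0.000893), and *BNIP3L* from 77.7, 70.6 and 72.1 to 23.9, 26.4 and 27.3 (−1.51 ± 0.10, adjusted p = 4.13e-06). *BCL2L12* was higher by a log2 fold change of 1.10 ± 0.18 (adjusted p = 0.000778), with 25.9% of its exon bases under opposite-strand genes. With the covariate *BCL2L12* and *BNIP3* were no longer called, which left 0 of the further genes higher. *BCL2L2*, the guardian BCL-W, had a log2 fold change of 0.27 ± 0.09 and *BAD*, a BH3-only gene, 0.36 ± 0.14, and they turned to −0.015 and −0.0095 with the GC and length correction. *BCL2L15* had −0.24 ± 0.32 and was not called. *BIK* (4 to 16 counts), *BCL2L10* (1 to 9 counts) and *BCL2L14* (listed at 0 in every library) were not tested.

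**Figure D4:**
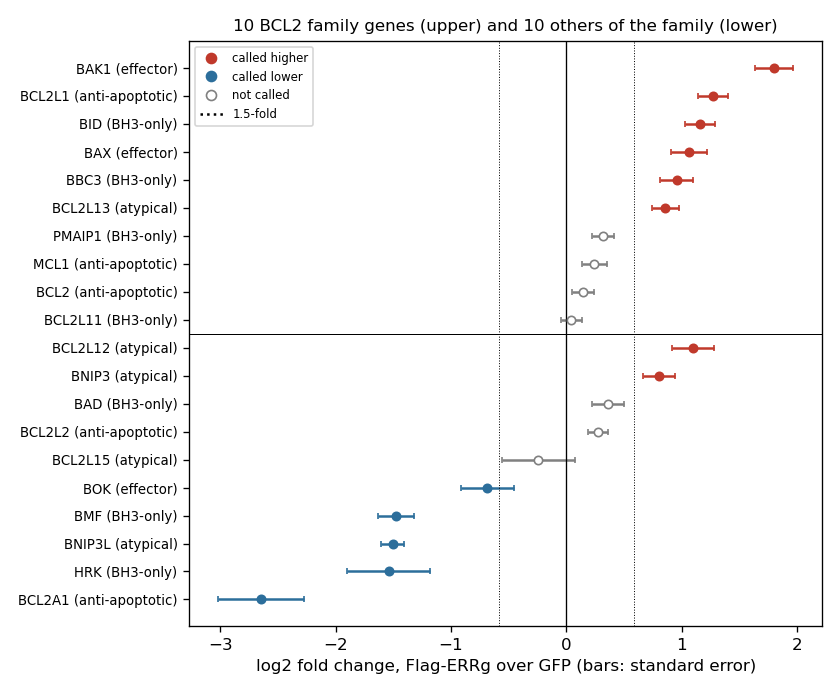
log2 fold change of Flag-ERRg over GFP (horizontal axis, bars are standard errors, n = 3 libraries per group) for the 10 genes (upper block) and the 10 tested further family genes (lower block). Filled red points were called higher, filled blue points lower and open grey points neither, and dotted lines mark 1.5-fold. With TMM scaling the upper block runs from 0.04 to 1.80, and the lower block from −2.65 to 1.10.

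Downstream of the pore, calls were about as frequent as among protein-coding genes in general. Of 16 apoptosome, caspase and IAP genes 4 were called higher and 2 lower, beside 25.9% and 12.4% of tested protein-coding genes, with a median log2 fold change of 0.11. The 4 higher genes encode proteins that mitochondria can release. *CYCS*, cytochrome c, went from 74.9, 77.4 and 72.9 to 154, 204 and 186 normalized CPM (log2 fold change 1.27 ± 0.11, adjusted p = 3.06e-05). *AIFM1*, the apoptosis-inducing factor, was also higher (1.12 ± 0.13), as were *HTRA2*, a protease that antagonises IAP proteins (0.87 ± 0.14), and the nuclease gene *ENDOG* (1.27 ± 0.32, 35 to 151 counts), but opposite-strand genes cover 32.3% and 40.1% of the exon bases of the latter pair. *DIABLO*, which encodes a further released protein and was named after its value was seen, had −0.17 ± 0.12 and was not called. *APAF1*, the scaffold, was lower by 0.62 ± 0.12 on the log2 scale (adjusted p = 0.00152), and *BIRC2*, the inhibitor cIAP1, by 0.74 ± 0.11 (adjusted p = 0.000346). With the GC and length correction *APAF1*, *BIRC2* and *HTRA2* (0.52) were not called. With the covariate *APAF1*, *BIRC2*, *HTRA2* (0.37) and *ENDOG* (0.0091) were not. *CYCS* and *AIFM1* were called in all 18 alternatives, and *APAF1* in 10.

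On the death receptor side, 9 of 10 genes were tested (*CASP10*, with 3 to 18 counts, was not). Of these 4 were called higher and 0 lower by edgeR, with 0 lower also at an unadjusted p under 0.05 and by DESeq2, beside 25.9% higher and 12.4% lower of tested protein-coding genes, and the median log2 fold change was 0.54. The TRAIL receptor gene *TNFRSF10B* went from 129, 146 and 139.8 to 365, 435 and 468 normalized CPM (1.61 ± 0.12, adjusted p = 9.71e-06). Its relative *TNFRSF10A* had a log2 fold change of 1.34 ± 0.20, and the adaptor genes *FADD* and *TRADD* had 1.45 ± 0.21 and 0.63 ± 0.15. *TRADD* kept its call in 11 of 18 alternatives, with 0.041 under the covariate, and the other 3 genes in all 18. Opposite-strand genes cover 59.2% of the *FADD* exon bases.

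Of 16 regulators of family genes and proteins, 4 were called higher and 2 lower, close to the 25.9% and 12.4% of tested protein-coding genes, with a median log2 fold change of 0.29. *ATF4*, of the integrated stress response, had a log2 fold change of 1.36 ± 0.15 (adjusted p = 8.31e-05). The channel genes *VDAC1* (1.42 ± 0.16) and *VDAC2* (1.31 ± 0.16), whose proteins interact with BAX and BAK at the outer membrane, were higher as well. *FOXO1* and *FOXO3*, whose proteins can induce *BCL2L11* and *BBC3*, were lower by 1.34 ± 0.10 and 1.07 ± 0.09 on the log2 scale (adjusted p = 9.29e-06 and 1.86e-05). *BCL2L11* was not called and *BBC3* was higher, and a link of either gene to these regulators was not tested.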

How the data were processed

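All 6 libraries of rRNA-depleted total RNA from SH-SY5Y cells were used, grouped by the treatment and replicate number in the labels. The deposited values are raw counts per gene. The submitters' processing notes name CASAVA, Trim Galore 0.6.7, STAR 2.7.9a, HTSeq 0.11.3, DESeq2 and GRCh38. The annotation release and the strand setting are not given in the sources used here. Ensembl identifiers were matched without version to GENCODE release 44 (90.1% of 67060), which need not be the release the authors used. The 5 summary entries (no feature, ambiguous and the like) stayed out of library sizes and tests.

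Genes passing filterByExpr (24500) were scaled by TMM and compared with the quasi-likelihood test of edgeR 4.0.16 (R 4.3.3). Standard errors were obtained by dividing the size of each log2 fold change by √F. Normalized CPM use the TMM factors, and CPM per kb the union of exons. Fits were tested on simulated data. With 3 libraries per group the spread rests on 4 residual degrees of freedom, moderated across genes. All 10 genes are given by library, every tested further family gene is named, and from the other lists the called genes, at most 6 per list, of which 1 is not reported here by name. The genes and lists were chosen with earlier results of these data known, as were the motifs, the E-box after the windows had been seen. Alternatives were DESeq2 1.42.0, RLE or library-size scaling, other filters and cutoffs, a table of protein-coding genes, leaving out each library, the replicate number as a block, a GC and length correction (mgcv 1.9.3, values for 98.9% of tested genes) and the share of reads assigned to no gene as a covariate. Python 3.11.15 was used for tables and plots.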

Additional observations from a re-analysis of the deposited data

How the results depend on the processing

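All 18 alternatives left *ESRRG* called higher, with log2 fold changes of 2.57 to 3.54. Of the 10 *BCL2* family genes, 5 to 7 were called higher in every alternative except that with the share of reads assigned to no gene as a covariate, which called 3, and 0 were called lower in each. That covariate follows the treatment closely. With each library left out in turn, 6 of the 10 were called higher every time. Same-numbered libraries did not deviate together (correlation 0.08 for number 3 and −0.0001 for number 4). As only these numbers occur in both groups, this cannot settle whether same-numbered libraries shared a culture or batch. The replicate block left 6 of the 10 called higher. Its treatment estimate rests on the libraries numbered 3 and 4, because the other numbers do not occur in both groups. It thus sets aside a GFP library and the Flag-ERRg library that was lowest of its group in all 6 called genes. The block also leaves fewer residual degrees of freedom than the main fit, so it is a weak check.

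The log2 fold change changed sign with scaling by library size alone to −0.17 (*BCL2*), −0.084 (*MCL1*), −0.27 (*BCL2L11*), −0.0062 (*PMAIP1*) and −0.046 (*BCL2L2*), with protein-coding genes only to −0.092 (*BCL2L11*), with the GC and length correction to −0.015 (*BCL2L2*), −0.0095 (*BAD*) and 0.025 (*BCL2L15*), with replicate block and that correction together to −0.036 (*BCL2L11*), −0.078 (*BCL2L2*) and −0.015 (*BAD*), and with the covariate to 0.11 (*BCL2L15*). With a library left out, *BCL2L15* ranged from −0.45 (without Flag-ERRg replicate 3) to 0.031 (without Flag-ERRg replicate 4). Over the 18 alternatives, the 10 genes kept direction and call in 166 values, lost the call in 6 and gained it in 2, and the other named genes in 417, 40 and 1.

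Of the further family genes, the number higher was 1 with library size alone and with the test against a 1.5-fold threshold and 0 with the covariate, and the number lower was 3 with at least 10 counts in every library, where fewer genes are tested. Apoptosome, caspase and IAP genes higher were 7 with no fold cutoff, 2 with the test against the threshold and 2 with the covariate. Those lower were 1 with DESeq2 and with RLE size factors, 4 with library size alone and with no fold cutoff, and 0 with the threshold test, with the GC and length correction, with and without the replicate block, and with the covariate. They were 1 to 2 with a library left out, 1 without Flag-ERRg replicate 3 or 4. Regulators higher were 8 with no fold cutoff and 6 without Flag-ERRg replicate 2, from a leave-one-out range of 4 to 6, and those lower were 4 with library size alone. The causes were not tested. Death receptor genes called higher were 3 to 6 and called lower 0 in all 18 alternatives. At the counts of *BCL2A1*, *HRK* and *BOK*, depth limits the estimates.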
